A study of Mus musculus with 6 samples.

Results

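The nuclear-encoded subunits of the mitochondrial respiratory chain were examined in skin, labelled as telogen, of mice with a conditional deletion of Sox4 in skin (KO) and of wild-type mice (WT). Members were chosen by gene name: symbols of the Nduf (A, B, C, S and V series), Sdh, Uqcr, Cox4 to Cox8 and Atp5 families, with Cyc1 and Cycs, and without Cox7a1 and Cox8b. The rule found 115 of 55681 probes, for 84 genes: 37 of complex I, 4 of complex II, 9 of complex III, cytochrome c alone, 16 of complex IV and 17 of complex V. Each gene was read from its brightest probe, and 82 of the 84 passed the filter on dim probes. The 2 that did not were the testis isoforms Cox7b2 and Cox8c, which were not well above background on any KO or WT array. The subunits encoded by the mitochondrial genome carry other names and were not analysed here.

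The data were 1-colour Agilent arrays of untreated skin, labelled as telogen (hair follicles at rest), from male mice of a mixed background with 75% C57Bl6 and 25% 129Sv contribution. KO mice were 17, 18 and 16 weeks old and WT mice 20, 19 and 18 weeks old (replicates 1, 2 and 3, 1 array each), so each group held 3 different ages. The KO mice were younger on average and only the age of 18 weeks occurred in both groups, so age and deletion cannot be fully told apart. The labels give neither the promoter that drives the deletion nor the litter, and p-values measure the spread between these samples. Slide 1 held KO replicate 3 and WT replicate 1, slide 2 held KO replicate 1 with WT replicates 2 and 3, and slide 3 held KO replicate 2, so that KO replicate 2 and its slide cannot be told apart.

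Complexes I to IV pass electrons from NADH and succinate to oxygen and, except for complex II, pump protons across the inner mitochondrial membrane; complex V uses the proton gradient to make ATP. Cytochrome c is the soluble carrier between complexes III and IV. Skeletal and heart muscle are rich in these complexes and use their own isoforms of several complex IV subunits, while epidermis and dermis use the widely expressed forms.

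The values below are log2 of the processed spot signal minus each array's 75th percentile, so a value of 0 is the signal of the 75th percentile probe. Fold changes are KO minus WT on this log2 scale, with the moderated standard error of limma over 3 KO and 3 WT arrays. The number of arrays limits their precision. Between 52.1% and 66.4% of probes were well above background, and no non-control spot was saturated. Sox4 itself read −2.94, −2.88 and −3.05 on the KO arrays, against 0.41, 0.65 and 0.75 on the WT arrays (log2 fold change −3.56, SE 0.13, limma adjusted p = 0.00135). Markers of the growing hair follicle went against the telogen label on 2 of the 3 KO arrays. The inner root sheath keratin Krt71 read 7.22, 6.73 and −2.27 in KO, against −2.39, −1.19 and −1.59 in WT, and Krt27 read 5.10, 4.29 and −4.01 in KO, against −3.56, −3.38 and −3.62 in WT (both chosen after their values were seen). KO replicates 1 and 2 were high and KO replicate 3 lay with WT, so values are also given for KO replicate 3 alone. Keratinocyte markers were measured on all arrays, and 13 of 14 were tested. KO was lower on average for each of the 13 (64.1% of all features), and limma called none of them.

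Respiratory chain genes lay slightly higher in KO skin, and no single gene passed the test. Of the 82 genes, 74 had a positive fold change (35.9% of all 22822 features tested) and 8 a negative one (64.1% of all features). The median log2 fold change was 0.28 (1.21-fold), against −0.09 over all features. After Benjamini-Hochberg adjustment over all features, limma called 0 of the 82 genes (0.0219% of all features were called), with adjusted p from 0.274 to 0.963. At an unadjusted limma p under 0.05, 24 genes were higher in KO (6.26% of all features) and 1 was lower (5.5% of all features). All KO values lay above all WT values for 42 genes, or 51.2% of the 82, against 7.56% of all features. All KO values lay below all WT values for 2 genes, against 11.8% of all features.

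A score was taken for each array as the median over the 82 genes of the signal minus the gene's WT mean. It was 0.14, 0.49 and 0.22 in KO replicates 1, 2 and 3, against 0.023, 0.028 and −0.050 in WT replicates 1, 2 and 3. The groups did not overlap, and the spread was wider among KO arrays (SD 0.18, n = 3) than among WT arrays (SD 0.044, n = 3). KO replicate 2 was the highest of the 6 arrays for 71 of the 82 genes, against 3648 of all 22822 features. Without KO replicate 2 the median log2 fold change was 0.17 and 12 genes were higher at an unadjusted limma p under 0.05 (4.3% of all features in that fit). On the remaining arrays 42 genes had all KO values above all WT values (9.92% of all features). Leaving out KO replicate 1 or 3 gave 61 (11.9% of all features) and 45 (11.4%), and leaving out WT replicate 1, 2 or 3 gave 50 (13.3%), 50 (10%) and 43 (10.1%). KO replicate 3 alone lay above the WT mean for 73 of 82 genes (47.1% of all features) and above all WT arrays for 61 (24.3%), with a median difference of 0.22. On slide 1 the median difference was 0.21 (0.022 over all features), and 75 of 82 genes were higher in KO (54.3% of all features). On slide 2 it was 0.12 (−0.11 over all features), with 61 of 82 higher (36.2% of all features). With slide as a block it was 0.18.

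**Figure D1:**
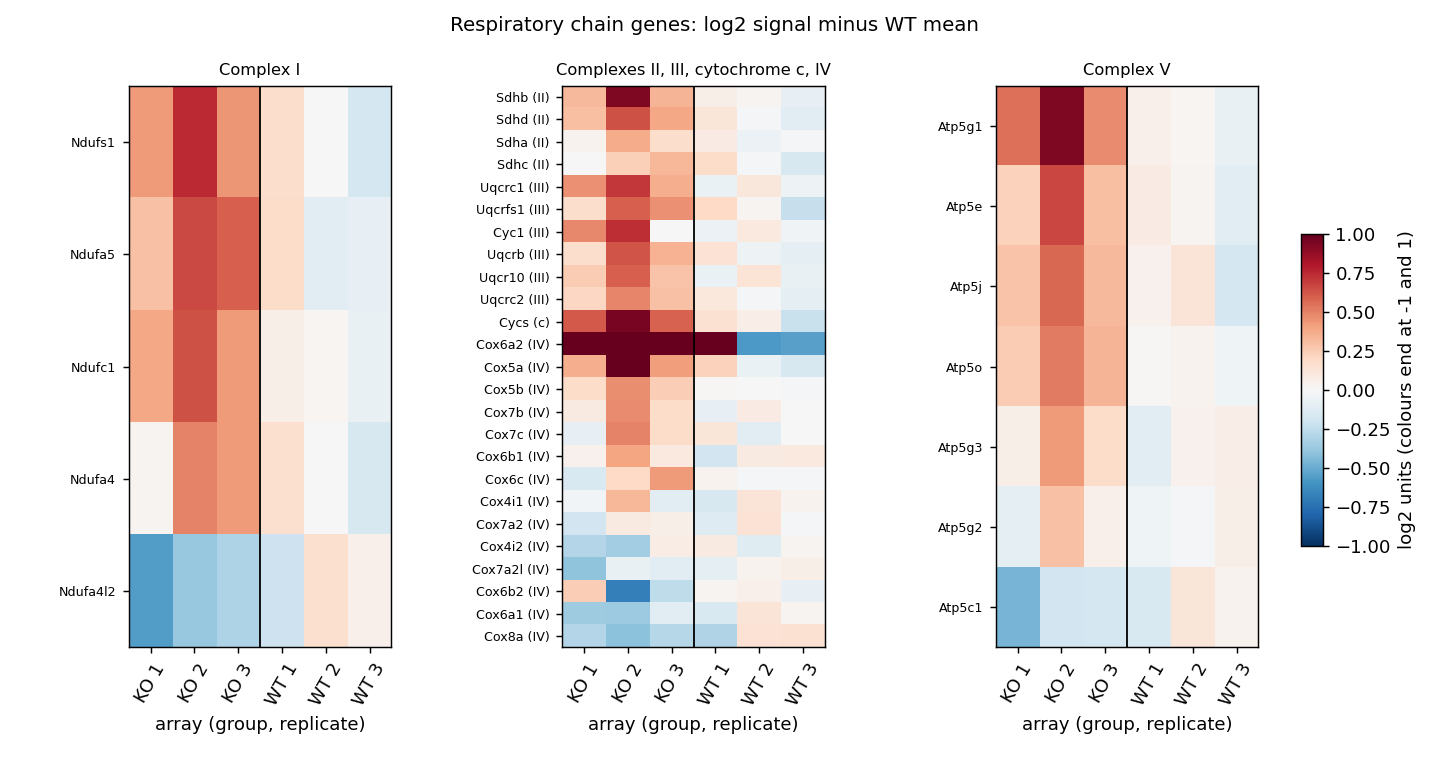
Heat map of the log2 signal minus the WT mean for the respiratory chain genes named with values in the text (rows, by complex, ordered by fold change; complex in brackets in the middle panel) on each array (columns, KO left, WT right). Most rows are red on the 3 KO arrays and deepest in KO replicate 2. Ndufa4l2, Atp5c1, Cox6a1 and Cox8a are among the rows that are blue on the 3 KO arrays, and Cox6a2 is red in WT replicate 1 as well.

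Most skeletal muscle markers moved with the groups too. Of 34 markers 33 were tested, and 30 had positive fold changes (35.9% of all features). The 3 negative ones, named after their values were seen, were Myh7 (−0.68, SE 0.63), Tnnt1 (−0.48, SE 0.73) and Tnni1 (−0.48, SE 0.91). All 3 overlapped between groups. The median of the 33 was 1.80. The muscle score was 1.71, 2.10 and 1.53 in KO replicates 1, 2 and 3, against 1.13, −0.47 and −0.67 in WT replicates 1, 2 and 3. The summed signal of the 33 markers ran from 4086 to 5525 times the 75th percentile signal on KO arrays, against 973 to 3478 on WT arrays, and the muscle actin Acta1 and the muscle creatine kinase Ckm were well above background on all 6 arrays. Ckmt2, the mitochondrial creatine kinase of muscle, read 4.62, 5.53 and 4.81 in KO, against 3.90, 2.30 and 2.10 in WT, and the muscle phosphoglycerate mutase Pgam2 read 5.75, 6.31 and 5.80 in KO, against 5.04, 3.51 and 3.39 in WT. WT replicate 1 thus stood nearest to KO in both.

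WT replicate 1 was the highest WT array for 37 of the 82 respiratory chain genes, against 32.6% of all features. The median gap of these genes in WT replicate 1 to the mean of WT replicates 2 and 3 was 0.034 (−0.039 over all features), while the muscle markers lay 1.70 above it. The gap was 0.15 in complex II, where WT replicate 1 was the highest WT array for all 4 genes, and 0.23 for cytochrome c. All 3 KO arrays lay above WT replicate 1 for 56 of the 82 genes, against 23.4% of all features. When limma was given the muscle score as a further term, the median log2 fold change of the 82 genes was 0.17, against −0.0047 over all features. In that fit 0 of the 82 were higher in KO at an unadjusted limma p under 0.05 (1.44% of all features). The deleted gene Sox4 had limma adjusted p = 0.226 there. Hair shaft and inner root sheath markers were high in KO replicates 1 and 2 (scores 4.09 and 3.77) and low in KO replicate 3 (−0.15), whereas the respiratory chain score was 0.14, 0.49 and 0.22 on those arrays. Among them the hair keratin Krt86 had 4.34 (SE 1.40) and the hair follicle deiminase Padi3 3.97 (SE 1.40). Of the other cell types, white adipocyte markers were positive in 3 of 12 cases (the adipokine Lep −1.78, SE 0.60, and the adipsin gene Cfd 0.65, SE 0.39). Dermal fibroblast markers were positive in 3 of 10 (the collagen gene Col1a1 −0.24, SE 0.11, and the matrix gene Fbln1 −0.31, SE 0.20). Over all features 35.9% were positive. Of the keratinocyte markers, the basal and bulge keratin Krt15 had −0.41 (SE 0.19) and loricrin, Lor, −0.17 (SE 0.11). The muscle score was higher on every KO array than on every WT array, so the fit with that score cannot tell muscle RNA and KO apart. The part of muscle, hair, adipocyte, fibroblast and keratinocyte RNA in the result was not tested. In whole skin, a change in the number of cells of one type and a change in RNA per cell cannot be told apart.

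**Figure D2:**
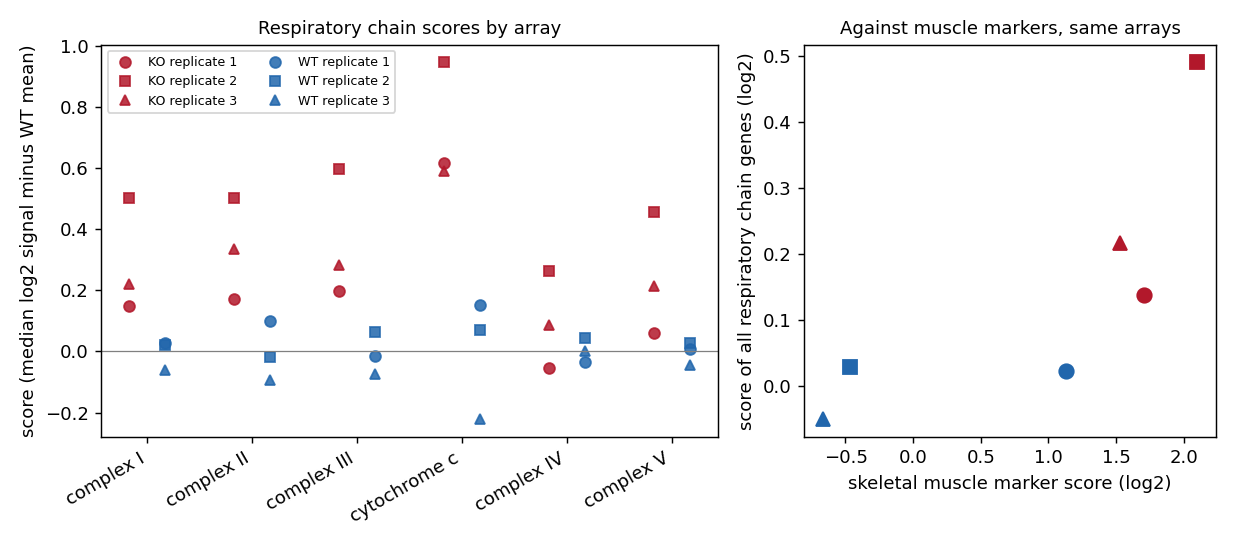
Left, score of each complex on each array (median over its tested genes of the log2 signal minus the WT mean), KO in red left of WT in blue, 1 marker shape per replicate number. Right, the score of all 82 genes against the skeletal muscle marker score on the same 6 arrays; WT replicate 1 (blue circle) lies at a muscle score of 1.13 and a respiratory chain score of 0.023.

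Complex I, the NADH dehydrogenase, was represented by 37 genes, grouped by name. Of these 36 had positive fold changes (35.9% of all features), and 20 had all KO values above all WT values (7.56% of all features). The median was 0.28 (scores 0.15, 0.50 and 0.22 in KO, against 0.027, 0.020 and −0.061 in WT). Ndufc1, a small accessory subunit, had the smallest p of the complex. It read 5.42, 5.67 and 5.46 in KO, against 5.09, 5.06 and 4.96 in WT (log2 fold change 0.48, SE 0.12, limma adjusted p = 0.276). Its groups were separate, and the 3 WT values lay close together.

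Ndufs1, an iron-sulphur subunit near the NADH end of the complex, read 4.61, 4.93 and 4.62 in KO, against 4.36, 4.18 and 4.01 in WT (0.54, SE 0.15, limma adjusted p = 0.298). Every KO array lay above every WT array. The accessory subunit Ndufa5, whose groups were also separate, read 5.73, 6.10 and 6.03 in KO, against 5.62, 5.33 and 5.36 in WT (0.52, SE 0.15, limma adjusted p = 0.309). WT replicate 1 was nearest to KO for Ndufs1 and Ndufa5.

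The 7 nuclear-encoded subunits of the catalytic core, a grouping made after the values were seen, carry the redox centres of the complex. Their fold changes ran from 0.35 to 0.54 with a median of 0.41, and 6 of the 7 had no overlap with KO higher (7.56% of all features). The other 30 genes, with Ndufa4 and Ndufa4l2 grouped among them by name, ran from −0.42 to 0.52 with a median of 0.26. Of the 30, 14 had no overlap with KO higher (7.56% of all features). The difference between these sets was not tested.

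Of the 37 genes grouped with complex I by name, the 1 with a negative fold change was Ndufa4l2, a hypoxia-induced relative of Ndufa4. It read 5.09, 5.27 and 5.34 in KO, against 5.44, 5.81 and 5.70 in WT (−0.42, SE 0.14, limma adjusted p = 0.363). All KO values lay below all WT values, and it was the 1 respiratory chain gene lower in KO at an unadjusted limma p under 0.05. Ndufa4, which was named for complex I and is now placed in complex IV, read 4.59, 5.05 and 4.98 in KO, against 4.71, 4.56 and 4.40 in WT (0.32, SE 0.17), with overlap between groups.

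Complex II, succinate dehydrogenase, also serves the tricarboxylic acid cycle and is encoded wholly in the nucleus. All 4 of its genes had positive fold changes (35.9% of all features), with a median of 0.32. Sdhb, the iron-sulphur subunit, read 5.88, 6.48 and 5.89 in KO, against 5.61, 5.58 and 5.46 in WT (0.53, SE 0.19, limma adjusted p = 0.372). Sdhd, a membrane anchor, read 4.55, 4.89 and 4.64 in KO, against 4.37, 4.23 and 4.15 in WT (0.44, SE 0.14, limma adjusted p = 0.322). Neither gene overlapped between groups. The flavoprotein Sdha (0.19, SE 0.13) and the other anchor Sdhc (0.19, SE 0.15) did, because WT replicate 1 lay above KO replicate 1 in both.

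Complex III, which takes electrons from ubiquinol to cytochrome c, had 9 genes, all with positive fold changes (35.9% of all features) and a median of 0.38. Uqcrc1, a core protein on the matrix side, read 4.28, 4.53 and 4.19 in KO, against 3.76, 3.94 and 3.78 in WT (0.51, SE 0.13, limma adjusted p = 0.286), and its difference was 0.42 on slide 1 and 0.42 on slide 2. The other core protein, Uqcrc2, read 4.89, 5.18 and 4.98 in KO, against 4.79, 4.67 and 4.59 in WT (0.33, SE 0.13). Of the small subunits, Uqcr10 had a log2 fold change of 0.38 (SE 0.14) and Uqcrb of 0.38 (SE 0.15), both without overlap and with 3 kept probes each that were all higher in KO. The 2 nuclear-encoded subunits that carry redox centres, cytochrome c1 (Cyc1) and the Rieske protein (Uqcrfs1), had 0.41 each and overlapped between groups.

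Cytochrome c, the single gene Cycs, had a log2 fold change of 0.72, against medians of 0.11 to 0.38 for the 5 complexes. The highest single genes had 0.54 in complex I, 0.53 in II, 0.51 in III, 1.79 in IV and 0.65 in V. Cycs read 5.07, 5.40 and 5.05 in KO, against 4.61, 4.52 and 4.23 in WT (1.65-fold, SE 0.16, limma adjusted p = 0.274). The groups did not overlap, and the difference was 0.44 on slide 1 and 0.69 on slide 2. The second kept probe of the gene gave 0.65, and the third was not kept because it was dim. In the fit that includes the muscle score its log2 fold change was 0.38.

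NRF1 is a transcription factor known to bind promoters of cytochrome c and other respiratory chain genes, and the promoters of the 3 tested genes with the smallest p that hold the core of its site are shown for that reason. The windows run from 250 bases before to 50 bases after the start, from RefSeq on build GRCm38.p6, 5′ to 3′ on the gene's strand, with matches to GCGCATG on either strand in capitals. They are Cycs on the minus strand at chr6:50566520-50566819, Uqcrc1 on the plus strand at chr9:108936398-108936697 and Sdhb on the plus strand at chr4:140961021-140961320.
Cycs: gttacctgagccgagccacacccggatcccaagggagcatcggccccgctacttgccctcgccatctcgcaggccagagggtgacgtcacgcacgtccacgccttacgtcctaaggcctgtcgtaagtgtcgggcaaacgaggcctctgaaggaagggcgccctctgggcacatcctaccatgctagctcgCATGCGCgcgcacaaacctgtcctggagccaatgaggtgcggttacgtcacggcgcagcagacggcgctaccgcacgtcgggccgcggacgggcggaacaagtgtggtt
Uqcrc1: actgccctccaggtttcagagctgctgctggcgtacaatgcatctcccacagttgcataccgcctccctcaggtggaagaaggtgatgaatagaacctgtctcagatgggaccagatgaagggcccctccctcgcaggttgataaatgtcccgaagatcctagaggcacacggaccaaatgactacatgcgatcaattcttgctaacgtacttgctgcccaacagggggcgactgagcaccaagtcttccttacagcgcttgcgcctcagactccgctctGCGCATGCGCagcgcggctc
Sdhb: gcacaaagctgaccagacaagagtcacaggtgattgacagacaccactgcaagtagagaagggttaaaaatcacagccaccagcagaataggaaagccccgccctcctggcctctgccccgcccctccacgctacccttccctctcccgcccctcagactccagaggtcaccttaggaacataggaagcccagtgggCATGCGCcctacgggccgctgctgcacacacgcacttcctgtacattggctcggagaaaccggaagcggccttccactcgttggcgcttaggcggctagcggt

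The match began at base −59 relative to the start in Cycs and at −53 in Sdhb, and in Uqcrc1 a pair of overlapping matches on opposite strands began at bases 31 and 34. RefSeq windows were matched for 67 of the 84 genes (72 windows). GCGCATG stood in 14 of the 72 windows (19.4%), against 3.91% of all 32851 windows of the same length. The GABP core CCGGAAG stood in 17 (23.6%, against 8.86% of all windows), and the SOX-type motif AACAAAG in 4 (5.56%, against 5.85%). GABP is another known regulator of respiratory chain genes. The 3 motifs were searched on both strands, none contains another, and matches describe these windows only.

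Complex IV, cytochrome c oxidase, differed in pattern from gene to gene. Of its 14 tested genes 8 had positive (35.9% of all features) and 6 negative fold changes (64.1% of all features). Their median was 0.11 (scores −0.054, 0.26 and 0.086 in KO, against −0.035, 0.044 and 0.00011 in WT), so the groups overlapped. The median was 0.13 on slide 1 and −0.08 on slide 2. Cox6a2, the heart and skeletal muscle isoform of subunit 6a, had the highest fold change of the 82 genes. It read 6.57, 7.35 and 6.48 in KO, against 6.12, 4.43 and 4.46 in WT (1.79, 3.47-fold, SE 0.50, limma adjusted p = 0.296). WT replicate 1 lay 0.36 below KO replicate 3 on the same slide and 1.68 above the mean of the other WT arrays. Without WT replicate 1 the log2 fold change was 2.36 (limma adjusted p = 0.0418), and in the fit that includes the muscle score it was −0.030.

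Cox7a1 and Cox8b, the muscle isoforms that the naming rule leaves out, also had WT replicate 1 next below the KO arrays. Cox7a1 read 5.28, 6.47 and 5.36 in KO, against 4.84, 3.12 and 3.12 in WT (2.01, SE 0.55). Cox8b read 5.83, 6.49 and 5.81 in KO, against 5.12, 4.17 and 3.82 in WT (1.67, SE 0.37). The widely expressed counterparts of these 3 isoforms did not share that difference. Cox6a1 read 7.65, 7.65 and 7.90 in KO, against 7.86, 8.14 and 8.04 in WT (−0.28, SE 0.13, limma adjusted p = 0.474). Cox8a read 6.69, 6.58 and 6.70 in KO, against 6.68, 7.13 and 7.14 in WT (−0.33, SE 0.16, limma adjusted p = 0.467), and its second probe gave −0.32. In both, WT replicate 1 lay among the KO values or next to them. Cox7a2, named after its values were seen, had −0.015 (SE 0.14).

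**Figure D3:**
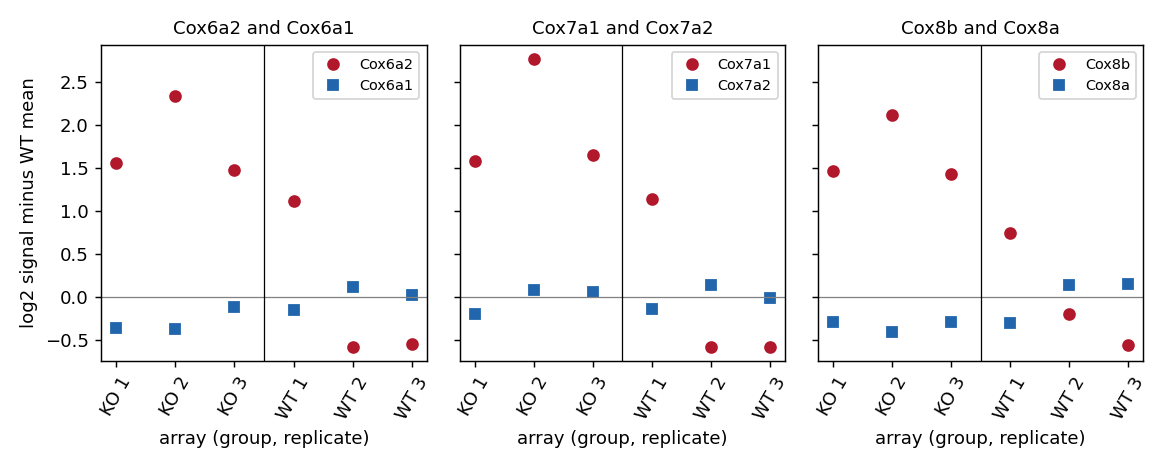
Log2 signal minus the WT mean on each array (KO left, WT right) for the 3 heart and skeletal muscle isoforms of complex IV (red circles) and their widely expressed counterparts (blue squares). Each muscle isoform lies above 0 on the 3 KO arrays and in WT replicate 1, while the counterparts stay between −0.41 and 0.16.

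Cox5a, Cox5b, Cox6c and Cox7c, a set of subunits without tissue isoforms grouped after the values were seen, had positive fold changes with a median of 0.25. Cox5a, which binds the matrix face of the complex, read 6.45, 7.08 and 6.50 in KO, against 6.31, 6.02 and 5.92 in WT (0.59, SE 0.21, limma adjusted p = 0.371), and Cox5b, a zinc-binding subunit, read 5.71, 5.99 and 5.77 in KO, against 5.54, 5.54 and 5.51 in WT (0.30, SE 0.12, limma adjusted p = 0.417). Both were without overlap between groups, while Cox6c (0.16, SE 0.17) and Cox7c (0.20, SE 0.17) overlapped. Another kept probe of Cox7c gave 0.33 without overlap, and its dimmest kept probe gave −0.063. Cox7a2l, a relative of Cox7a2 that takes part in joining complexes III and IV, read 6.25, 6.58 and 6.55 in KO, against 6.56, 6.69 and 6.71 in WT (−0.19, SE 0.13, limma adjusted p = 0.559), named after its values were seen. Its groups overlapped, and its 3 kept probes were all lower on average in KO. Cox4i1 had 0.066 (SE 0.16) and its lung-enriched relative Cox4i2 −0.19 (SE 0.15). Cox6b1 had 0.18 (SE 0.15), the testis isoform Cox6b2 −0.23 (SE 0.24) and Cox7b, whose testis isoform was dim, 0.25 (SE 0.14). Cox7b did not overlap between groups, while the others did.

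Complex V, the ATP synthase, had 17 genes, of which 16 had positive fold changes (35.9% of all features). In 9 of the 17 all KO values lay above all WT values (7.56% of all features). The median was 0.25 (scores 0.060, 0.46 and 0.21 in KO, against 0.0075, 0.028 and −0.045 in WT). On slide 2 the median was 0.020. The membrane ring that turns with proton flow is made of 1 protein encoded by 3 genes, and their fold changes differed. Atp5g1 read 6.33, 6.71 and 6.25 in KO, against 5.83, 5.80 and 5.70 in WT (0.65, 1.57-fold, SE 0.15, limma adjusted p = 0.274), with a gap of 0.42 between the lowest KO and the highest WT array. Atp5g3 read 6.61, 6.97 and 6.73 in KO, against 6.44, 6.59 and 6.61 in WT (0.22, SE 0.14). Atp5g2 read 6.78, 7.17 and 6.92 in KO, against 6.83, 6.86 and 6.93 in WT (0.080, SE 0.13), and its second probe gave −0.077. Atp5g2 and Atp5g3 overlapped between groups.

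In the stalk that joins the head to the membrane, Atp5o read 4.50, 4.77 and 4.59 in KO, against 4.26, 4.28 and 4.21 in WT (0.37, SE 0.12, limma adjusted p = 0.340), and Atp5j read 5.20, 5.49 and 5.24 in KO, against 4.96, 5.05 and 4.74 in WT (0.39, SE 0.14, limma adjusted p = 0.377). Atp5e, the epsilon subunit of the central stalk, had 0.40 (SE 0.15, limma adjusted p = 0.399). None of the 3 overlapped between groups. Atp5c1, the gamma subunit that rotates in the head, was the exception: its brighter probe read 5.22, 5.49 and 5.51 in KO, against 5.53, 5.81 and 5.72 in WT (−0.28, SE 0.14, limma adjusted p = 0.480), with all KO values below all WT values. Its dimmer probe gave 0.22, so the probes of Atp5c1 disagreed in sign.

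**Figure D4:**
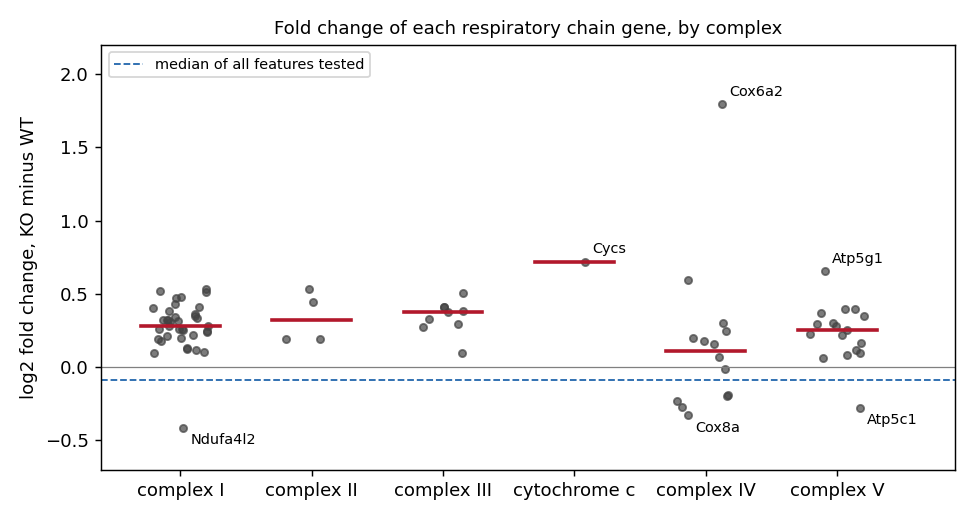
Log2 fold change (KO minus WT) of each of the 82 genes, 1 point per gene with random horizontal spread, grouped by complex; red bars are medians and the dashed line is the median of all 22822 features (−0.09). Complexes I, II, III and V lie mostly above 0, and complex IV is split, with Cox6a2 at 1.79 and Cox8a at −0.33.

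In all, 23 of the genes had several kept probes, and in 19 of these all probes of the gene gave the same sign. The 4 with mixed signs were Atp5c1, Atp5g2, Cox7c and Ndufv3, named after their values were seen. Several respiratory chain genes have processed pseudogenes, and whether any probe also reads them was not tested.

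Genes that build or run the chain were described from fixed lists, and limma called none of their members over all features, with adjusted p of 0.274 or more. Of 46 tested assembly factors (51 listed), 25 had positive fold changes (35.9% of all features). The median of the 46 was 0.039. At an unadjusted limma p under 0.05, 6 were higher (6.26% of all features) and 1 was lower (5.5%) in KO. Uqcc1, an assembly factor of complex III, had 0.47 (SE 0.12) and Timmdc1, of complex I, −0.53 (SE 0.15). Of 22 regulators of mitochondrial gene expression and biogenesis, 12 had positive fold changes (35.9% of all features), and the median was 0.0081. At an unadjusted limma p under 0.05, 1 was higher in KO (6.26% of all features). That gene was the coactivator Ppargc1a, which read −0.019, 0.59 and 0.31 in KO, against −0.16, −0.69 and −0.40 in WT (0.71, SE 0.21, limma adjusted p = 0.309). The regulator with the next smallest p was Yy1 (−0.21, SE 0.11).

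Tricarboxylic acid cycle and pyruvate dehydrogenase genes lay on the positive side in 17 of 18 cases (35.9% of all features). Their median was 0.38, and 0.17 in the fit that includes the muscle score. The isocitrate dehydrogenase subunit Idh3b read 4.25, 4.72 and 4.19 in KO, against 3.75, 3.38 and 3.19 in WT (0.94, SE 0.21). In 13 of the 18 genes, Idh3b among them, all KO values lay above all WT values (7.56% of all features). Fatty acid oxidation genes had a median of 0.16 (15 of 18 positive, against 35.9% of all features). The carnitine transferase Cpt1b, the form of muscle and brown fat, had 1.80 (SE 0.48), and the enoyl isomerase Eci1 had 0.40 (SE 0.15). Glycolysis genes, a list that holds muscle isoforms, had a median of 0.62, but 6 of 18 were negative (64.1% of all features). Their median was 0.063 in the fit that includes the muscle score, 0.12 on slide 1 and 0.73 on slide 2. Pgam2 had 1.97 (SE 0.45) and the liver-type phosphofructokinase Pfkl −0.58 (SE 0.12), which read 0.12, −0.060 and 0.21 in KO, against 0.64, 0.72 and 0.65 in WT. The brown fat uncoupling protein Ucp1 was well above background on 0 KO arrays and 1 WT array, so brown adipocytes could not be followed through it. Of the 9 tested brown adipocyte markers, 4 had positive (35.9% of all features) and 5 negative fold changes (64.1% of all features). The positive ones were Cox7a1, Cox8b, Cpt1b and Ppargc1a, and the fatty acid elongase Elovl3 (−0.76, SE 0.15) was among the negative ones. The score of the 9 markers was 0.40, −0.46 and 0.72 in KO, against 0.26, 0.018 and −0.12 in WT.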

How the data were processed

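Per the file headers, the authors deposited spot intensity values and 0 or 1 flags (other values) from Agilent Feature Extraction 11.5.1.1, background-subtracted and detrended but not normalized between arrays. The authors also deposited a log2 value table. Its 6 columns followed scanner arrays of the opposite group and same replicate number (r = 0.942 to 0.964 over 27351 probes, after removing probe means), against −0.594 to −0.216 for the array in the heading. The mismatch does not itself show which source is mislabelled. Directions rest on the scanner files, grouped by the sample each is recorded for; Sox4 is low on the 3 recorded as KO. The table was used for this check alone. The submitters' processing notes name limma, without settings.

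Unflagged spots were averaged per probe on the log2 scale (55650 of 55681 probes) and centred on each array's 75th percentile. Accessions were named through a RefSeq table of GRCm38.p6 (27497 probes named). A probe was kept if every array of KO or every array of WT had it well above background (30081), 1 brightest probe per gene, giving 22822 features. KO was set against WT with limma 3.58.1 (R 4.3.3), two-sided, Benjamini-Hochberg threshold 0.05; the fit was tested on simulated data. The background alternative used spot medians with normexp, since the files hold no spot means. Named members were, per complex, up to 4 with the smallest p and up to 2 of opposite sign, plus fixed isoform pairs and the Atp5g genes; from each other list, 2 with the smallest p. Some genes so named are not reported here. Members and lists were chosen with earlier results of these data known. Same-numbered KO and WT arrays did not deviate together (r = −0.128, −0.036 and 0.081), so numbers do not pair them. Protein sequences were not used here.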

Additional observations from a re-analysis of the deposited data

How the results depend on the processing

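With 3 arrays per group, only large single-gene changes could pass, and signal near background was not a limit for the 82 genes, all of them well above background on every array. The count called was 0 in each fit except without WT replicate 1, where Cox6a2 alone was called, so the range over left-out arrays was 0 to 1. Over all features the calls ran from 0 to 303, against 5. Genes higher at an unadjusted limma p under 0.05 were 24 (6.26% of all features), and 49 (6.91%) after normexp with quantile, 40 (6.79%) after quantile, 10 (6.09%) with median scaling, 8 (4.82%) with slide as a block, 0 (1.44%) with the muscle score in the fit, and 8 (4.44%, without WT replicate 3) to 31 (5.45%, without KO replicate 1) with 1 array left out. Genes without overlap ran from 42 to 61 with 1 array left out, an alternative added after seeing the data, as was KO replicate 3 alone.

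The median log2 fold change of the 82 genes was positive in every setting run, from 0.12 to 0.42. With age as a covariate it was 0.42 (complex I 0.42, II 0.51, III 0.54, cytochrome c 1.08, V 0.45). With the muscle score it was 0.11 for complex II, 0.22 for III and 0.38 for cytochrome c. On slide 1 alone cytochrome c had 0.44. On slide 2 alone all genes had 0.12, complex I 0.14, IV −0.082 and V 0.020. With 1 array left out the medians ran from 0.17 to 0.34 for all genes, from 0.18 to 0.36 for complex I, 0.25 to 0.40 for II, 0.25 to 0.39 for III, 0.60 to 0.79 for cytochrome c, 0.025 to 0.18 for IV and 0.14 to 0.33 for V. The cause of these shifts was not tested.

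Sox4 kept its direction throughout. The numbers did not pair the arrays. With the replicate block the Sox4 value was −3.56 (limma adjusted p = 0.103), and no feature was called after adjustment. In that fit 18 genes of the chain were higher at an unadjusted limma p under 0.05 (5.47% of all features). With the muscle score Sox4 was −3.31 (limma adjusted p = 0.226). Signs of named genes turned with the muscle score for Sdhc (−0.076), Cox6a2 (−0.030), Cox8a (0.14), Cox7a2 (0.14), Cox7c (−0.056), Lep (0.10) and Krt15 (0.11); with age for Cfd (−0.10); with the slide block for Cox4i1 (−0.037), Cox6b2 (0.028) and Atp5g2 (−0.029); and for Cox7a2 after normexp with quantile (0.0097), quantile (0.00028) and median scaling (0.016). Leaving out arrays turned Cox4i1 (−0.015 without WT replicate 1, −0.065 without KO replicate 2, up to 0.15 without KO replicate 3), Atp5g2 (−0.025 without KO replicate 2, range up to 0.17) and Cox7a2 (0.056 without WT replicate 2, 0.074 without KO replicate 1, range down to −0.082).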
